A study of Mus musculus with 10 samples.

Results

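The SOCS family comprises 8 genes, Socs1 to Socs7 and Cish, and trimethylated lysine 27 of histone H3 (H3K27me3) was examined at each of them in mouse bone marrow-derived macrophages. The members are all the family's genes, 8 of 21887 protein-coding genes measured, and each was read over its body with 5 kb on either side, called its window here. The libraries fall into 6 groups from C57BL/6 mice. KO M2 (n = 2) and WT M2 (n = 2) macrophages received 20 ng/ml IL-4 for 24 h, KO M1 (n = 2) and WT M1 (n = 2) macrophages received 20 ng/ml LPS with 50 ng/ml interferon-gamma for 24 h, and KO M0 (n = 1) and WT M0 (n = 1) macrophages were left unstimulated. All cells had been grown from marrow for 7 days with 20 ng/ml M-CSF. KO cells were Eif2ak3 fl/fl x LysMcre, in which Cre from the lysozyme M gene removes the stress kinase PERK in myeloid cells, and WT cells were Eif2ak3 fl/fl without Cre. The floxed allele is thus shared by every group, and H3K27me3 data do not report how complete the deletion was. Neither age nor sex of the animals, nor any pooling, is given in the labels used.

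H3K27me3 is written by Polycomb repressive complex 2 and is found over genes held silent. SOCS proteins carry an SH2 domain, which docks on phosphorylated tyrosines, and a SOCS box, which recruits a ubiquitin ligase. Cytokine receptors signal through JAK kinases and STAT transcription factors, and STATs in turn switch on Cish, Socs1, Socs2 and Socs3, whose products shut the same receptors down. In macrophages SOCS1 is a brake on interferon-gamma and IL-4 signalling and SOCS3 on receptors that use gp130, the IL-6 family among them. Socs4, Socs5, Socs6 and Socs7 are studied mainly for growth factor and insulin receptor signalling.

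The libraries held 14.2 to 20.9 megatags in M2, 18.4 to 19.9 in M1 and 12.6 to 14.5 in M0. A 1 kb stretch had to reach 20 to 27 tags to be called, which is 12.9 to 15.9 tags per kb after scaling to 10 megatags, so an uncalled stretch lies under that level and is not shown to be free of the mark. In bulk chromatin, fewer cells carrying the mark and less of it per cell cannot be told apart. The share of tags inside regions was 41.3% to 61.3% in M2, 45.0% to 48.5% in M1 and 62.6% to 64.1% in M0, and the estimated fragment length was 178 to 190 bp in all stimulated libraries and 352 to 372 bp in M0, so M0 values stand beside the others without a test. WT M2 replicate 1 had the lowest share of tags in regions and 11.4% of its autosomal genes covered over at least 50% of the body, against 14.1% to 16.7% in the other stimulated libraries. It and WT M1 replicate 1 also stood apart on the X chromosome, with 44.9% and 30.1% of X-linked genes covered against 1.97% to 2.59% in the other 8 libraries. No SOCS gene lies on the X chromosome. Of 12 macrophage marker genes 8, Csf1r, Adgre1 and Lyz2 among them, had 0% of the body under regions in all 10 libraries and at most 2 were covered over at least 50% in any library. Of markers of other cells, 2 to 3 of 4 for T cells and 1 to 2 of 4 for B cells were so covered. So were 1 to 3 of 4 for granulocytes and 1 to 3 of 3 for dendritic cells. Of the stromal markers Col1a1 and Pdgfrb with the epithelial marker Epcam, 1 to 3 of 3 were so covered.

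Promoters are shown for the 3 members whose start sites were under H3K27me3 regions in M0 macrophages but in at most 1 of the stimulated libraries. Each runs 5′ to 3′ along the gene from RefSeq's GRCm38.p6 promoter table, with the last 50 bases from the start site onward. Capitals mark TTCNNNGAA, a core sequence recognised by STAT factors, which reads the same on both strands. Sites with another spacing are not marked. The Socs3 promoter is chr11:117969317-117969616 on the minus strand, the Cish promoter chr9:107296409-107296708 on the plus strand, and the Socs1 promoter chr16:10785487-10785786 on the minus strand.
Socs3: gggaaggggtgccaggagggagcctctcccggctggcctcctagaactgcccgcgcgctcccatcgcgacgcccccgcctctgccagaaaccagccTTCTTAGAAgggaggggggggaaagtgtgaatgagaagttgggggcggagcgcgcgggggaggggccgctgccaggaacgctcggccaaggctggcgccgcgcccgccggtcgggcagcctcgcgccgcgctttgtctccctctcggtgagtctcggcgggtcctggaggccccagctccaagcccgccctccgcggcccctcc
Cish: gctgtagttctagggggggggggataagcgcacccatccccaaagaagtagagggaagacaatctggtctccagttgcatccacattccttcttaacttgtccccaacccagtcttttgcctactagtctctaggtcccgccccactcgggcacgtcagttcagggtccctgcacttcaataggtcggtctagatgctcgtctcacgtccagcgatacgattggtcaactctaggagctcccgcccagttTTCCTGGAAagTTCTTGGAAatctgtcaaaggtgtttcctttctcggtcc
Socs1: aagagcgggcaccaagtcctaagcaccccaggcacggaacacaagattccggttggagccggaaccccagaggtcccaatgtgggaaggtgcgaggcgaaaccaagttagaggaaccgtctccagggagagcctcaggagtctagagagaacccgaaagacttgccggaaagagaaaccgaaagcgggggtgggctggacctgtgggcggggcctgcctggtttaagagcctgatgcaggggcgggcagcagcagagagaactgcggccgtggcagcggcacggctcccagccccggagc
Socs3 has 1 match, TTCTTAGAA, from -154 to -146 counted from the start site. Cish has 2 matches next to each other, TTCCTGGAA at 1 to 9 and TTCTTGGAA at 12 to 20, counted with the start site as 1. The Socs1 promoter and that of Socs4 held no match in these 300 bases. Among all 32851 listed promoters of this length, 8.30% held at least 1 match and 0.457% held at least 2. Socs3 has 31 CpG pairs in its promoter, Socs1 18, Socs4 34 and Cish 11, against a median of 7 over all promoters. Socs2, Socs5, Socs6 and Socs7 have no entry in the table.

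Socs3 (chromosome 11, 117966079 to 117970336, mm10), the gp130 feedback inhibitor, had H3K27me3 in M2 and M0 macrophages and no called region in M1. The share of its 14.3 kb window under regions was 45.6% and 52.8% in KO M2, 26.2% and 54.8% in WT M2, 0% in all 4 M1 libraries, 69.9% in KO M0 and 60.7% in WT M0. M2 and M1 did not overlap, and all M2 values lay under both M0 values. M2 averaged 44.9% ± 13.1 and M1 0% (SD, n = 4 each), a difference of 44.9 percentage points at p = 0.0286 in an exact two-sided permutation test, the smallest p that 70 arrangements give, and 0.880 after Benjamini-Hochberg adjustment over 11759 genes. Of those genes 1.04% had every M2 library above every M1 library, and 2, Nos2 and A230072I06Rik, had a larger difference than Socs3. The gain of M2 over M1 at Socs3 was known when the family was chosen, so these values describe it and are no separate evidence.

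The edges of the Socs3 regions add what the percentage leaves out. Distances are counted from the start site of the promoter table, which at Socs3 lies inside the listed gene body. In M0 1 region ran across the whole gene, 10.0 kb in KO M0 and 8.66 kb in WT M0, from 4.50 to 5.99 kb downstream of the start site to 3.98 to 4.16 kb upstream of it. In each M2 library the mark was in 2 pieces. The piece over the gene ended 0.224 to 0.600 kb downstream of the start site, the piece beyond began 2.31 to 3.53 kb upstream of it, and the promoter between them was uncalled over 2.64 to 4.13 kb. All 300 bases of the printed promoter were outside regions in the 4 M2 and 4 M1 libraries and inside them in both M0 libraries. A called region can average under the level needed for a call, as the piece beyond did in KO M2 replicate 2. Bases inside a region are thus not shown to reach that level themselves. In M1 the uncalled stretch around the start site was 88.2 to 103 kb long, and its nearest region lay 14.2 kb or more away.

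Of the 4274 genes with the start site under a region in both M0 libraries, 4.05% had it under none in any stimulated library, as at Socs3 and Socs1, 5.22% under none in M2 and 8.63% under none in M1. Of the 1662 genes with 50% or more of the body under regions in all 4 M2 libraries, as at Socs3 with 67.1% ± 6.27 (SD, n = 4), 3.19% had an uncalled start site in every M2 library. These start-site patterns were not planned and follow those of Socs3 and Socs1, so their shares describe these genes and are no separate evidence. Socs3 was the 1 gene (0.0353%), of 2829 with 50% or more of the body under regions in both M0 libraries, that had 50% or more in all 4 M2 and 0% in all 4 M1 libraries, a combination put together after its values were seen.

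The authors' Normalized Tag Count, the tags of a region per 10 megatags, exists only for called regions. Its lack of a value for M1 at Socs3 thus follows from the cover and is no second measure, and uncalled tags are not counted. The regions touching the window held 106.1 and 227.1 tags in KO M2, 52.6 and 146.9 in WT M2, none in M1, 426.4 in KO M0 and 467.6 in WT M0. WT M2 replicate 1 was the lowest M2 library, and its region over the gene had 14.4 tags per kb, only 1.11 times the level needed for a call. The other 3 M2 libraries had 17.0, 37.8 and 20.9 tags per kb there, against 42.8 in KO M0 and 54.0 in WT M0. With only regions of at least 16 tags per kb in every library, a level above all the calling thresholds, WT M2 replicate 1 had none left and the M2 minus M1 difference was 24.9 percentage points (exact permutation p = 0.143, n = 4). The difference was 51.1 percentage points when WT M2 replicate 1 was left out (exact permutation p = 0.0286, n = 3 and 4).

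**Figure D1:**
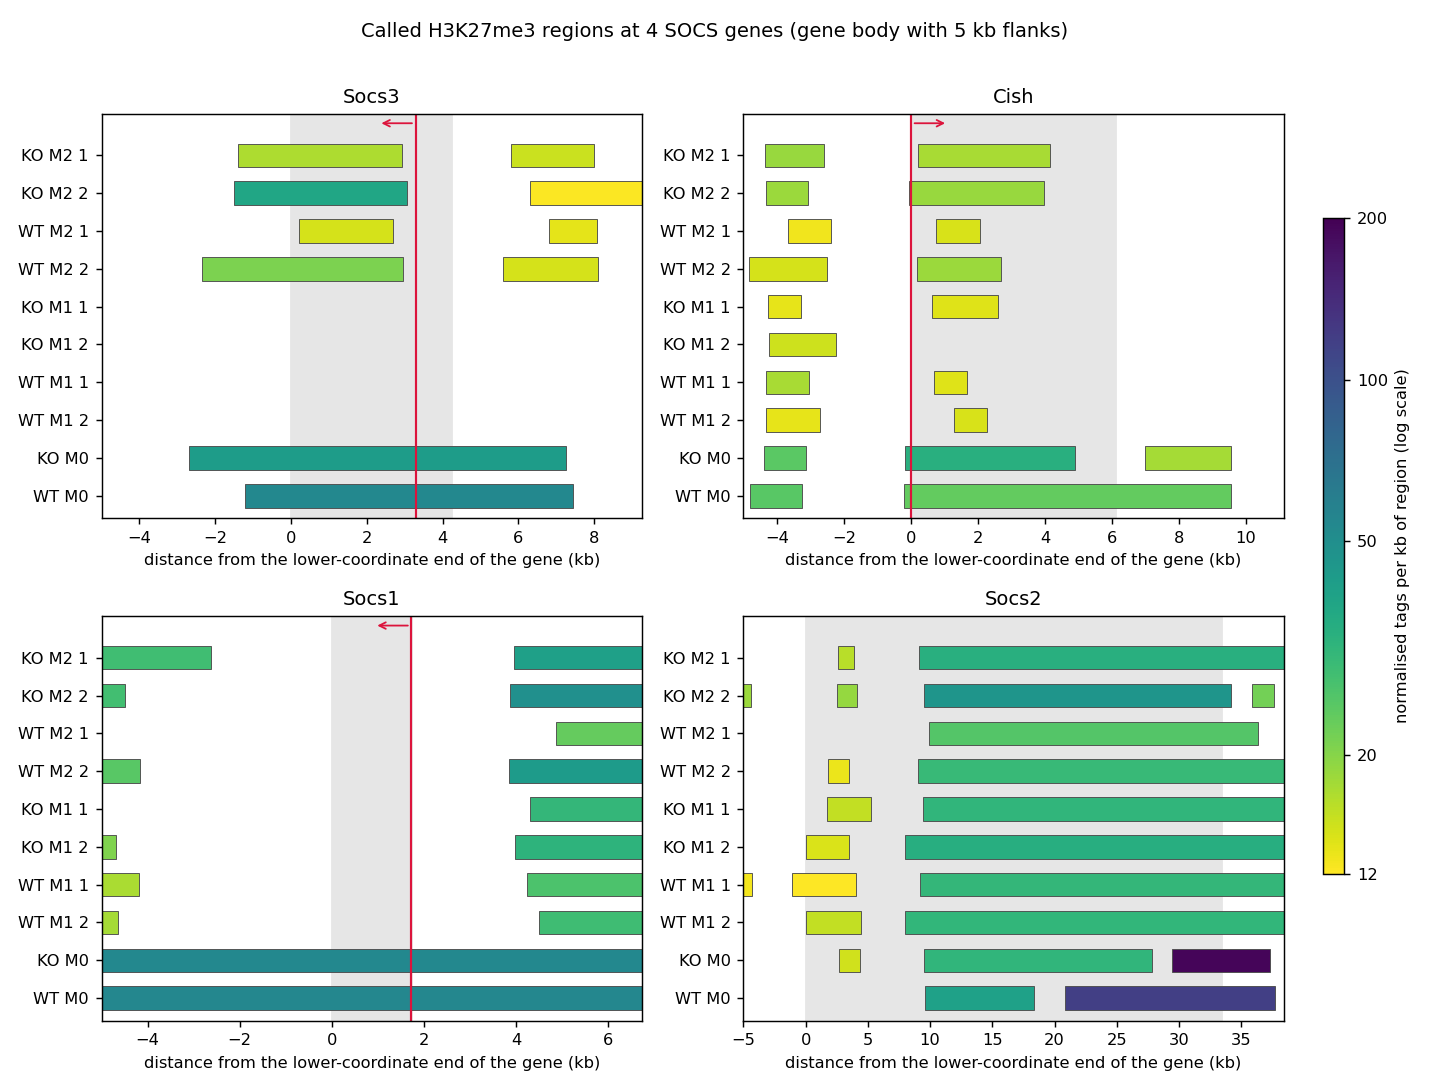
Called H3K27me3 regions (bars) in each of the 10 libraries at Socs3, Cish, Socs1 and Socs2, plotted by distance in kb from the lower-coordinate end of the gene, with the gene body in grey, the start site as a red line with an arrow along transcription (not placed for Socs2), and colour for normalised tags per kb on a log scale. At Socs3 the start site falls in a gap of 2.64 to 4.13 kb in M2, whose upstream border is a region near the calling level. In M0 that start site falls inside 1 region. At Socs1 the gene lies in a gap in all 8 stimulated libraries.

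Cish (chromosome 9, 107296659 to 107302784), the first feedback inhibitor of the family to be identified and a target of STAT5, was covered most in M0 and least in M1. Its 16.1 kb window was under regions over 35.3% and 32.8% in KO M2, 16.2% and 30.0% in WT M2, 18.3% and 12.5% in KO M1, 14.0% and 16.1% in WT M1, 55.2% in KO M0 and 70.1% in WT M0. Both M0 values lay above all others, and M2 overlapped M1 only in that WT M2 replicate 1 (16.2%) lay below KO M1 replicate 1 (18.3%). Mean cover was 28.6% ± 8.55 for the 4 M2 libraries and 15.2% ± 2.54 for the 4 M1 libraries (SD), a difference of 13.3 percentage points with an exact permutation p of 0.0571 and an adjusted p of 0.880 over all genes. Leaving out WT M2 replicate 1 gave 17.5 percentage points (exact permutation p = 0.0286, n = 3 and 4), but 12.4% of all genes then had every M2 library above every M1 library.

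The difference between M2 and M1 at Cish was larger over the body, with means of 47.8% in M2 and 16.1% in M1, than over the flank before the gene, with 33.6% in M2 and 29.3% in M1, where a region of 1.00 to 2.36 kb was present in all 10 libraries. It ended 2.23 to 3.28 kb before the start site in M1. Over the body, regions covered 64.3% and 64.8% in KO M2, 21.7% and 40.6% in WT M2, 31.9% and 0% in KO M1, 16.3% in both WT M1 libraries, 79.7% in KO M0 and 100% in WT M0. The start site with its pair of STAT motifs was inside a region in KO M2 replicate 2 and in both M0 libraries, and outside in the other 7. In the remaining M2 libraries the region over the gene began 0.191 to 0.733 kb downstream of the start site, and in the 3 M1 libraries with one it began 0.636 to 1.28 kb downstream. The regions touching the window held 100.9 and 97.5 tags in KO M2, 35.2 and 79.2 in WT M2, 40.3 and 29.8 in KO M1, 35.7 and 35.4 in WT M1, 247.7 in KO M0 and 269.8 in WT M0. In both stimulated states these regions were close to the level needed for a call, at 12.8 to 18.6 tags per kb in M2 and 13.3 to 17.3 in M1.

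**Figure D2:**
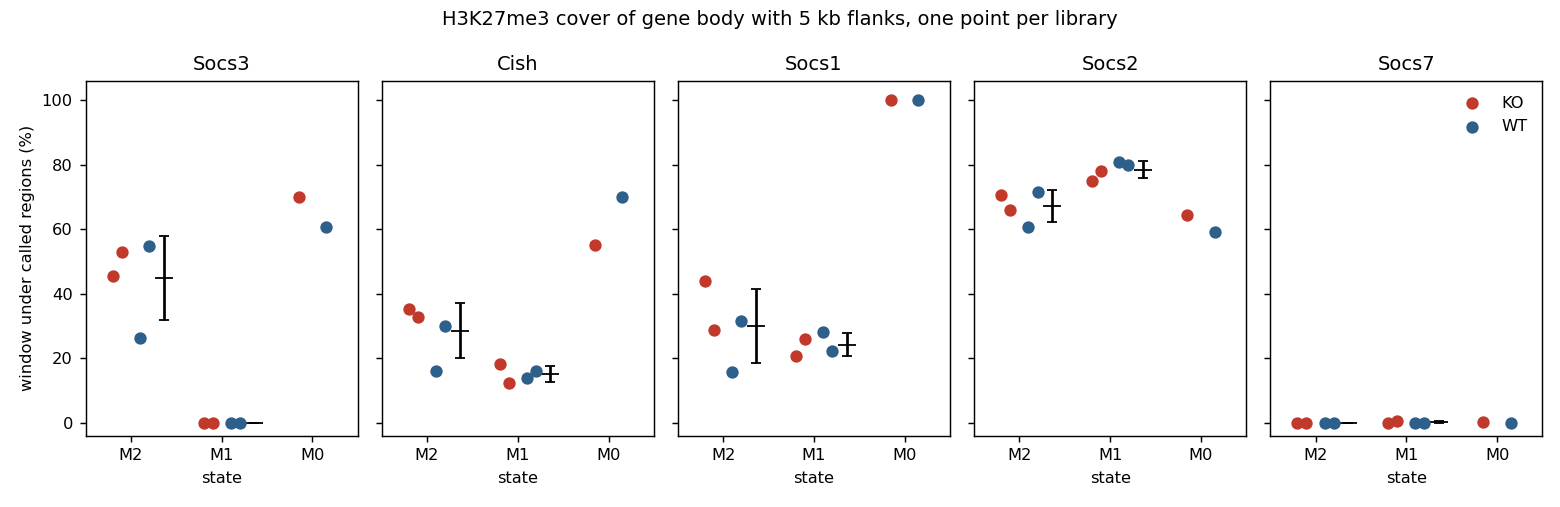
Percent of the gene body with 5 kb flanks under called regions for the 5 SOCS genes with any cover, one point per library (KO red, WT blue), by state; the black bars are the mean and SD of the 4 libraries of M2 and of M1. Socs3 is at 0% in all M1 libraries, and Socs3, Cish and Socs1 are highest in M0.

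Socs1 (chromosome 16, 10783808 to 10785536), whose product binds and inhibits JAK kinases directly, lay inside a broad domain in M0 and in a gap of that domain after either stimulation. Its 1.73 kb body was 0% covered in all 8 stimulated libraries and 100% covered in both M0 libraries. In M0 the domain was 130 kb long in KO and 127 kb in WT, with 54.0 and 54.6 tags per kb, and it reached 25.1 to 27.3 kb downstream and 102 kb upstream of the Socs1 start site. In the stimulated libraries a region of 49.0 to 54.4 kb in M2 and 49.5 to 50.1 kb in M1 remained on the upstream side. Its near edge stood 2.12 to 3.15 kb upstream of the start site in M2 and 2.25 to 2.77 kb in M1. The uncalled stretch around the start site was 6.58 to 10.2 kb in M2 and 8.42 to 9.60 kb in M1. On the downstream side a region of 20.5 to 20.8 kb touched the window in 3 of the 4 M2 libraries, and regions of 3.40 to 4.06 kb did in 3 of the 4 M1 libraries. In the fourth library of each state the next region began just outside the window, 7.07 kb downstream of the start site in WT M2 replicate 1 and 7.03 kb in KO M1 replicate 1.

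The window of Socs1 was under regions over 43.9% and 28.7% in KO M2, 15.8% and 31.6% in WT M2, 20.7% and 26.0% in KO M1, 28.2% and 22.1% in WT M1, and 100% in both M0 libraries. M2 and M1 overlapped, with means of 30.0% ± 11.5 over the M2 libraries and 24.3% ± 3.47 over the M1 libraries (SD, n = 4). The difference of 5.76 percentage points had an exact permutation p of 0.429 and an adjusted p of 0.986. It was 10.5 percentage points when WT M2 replicate 1 was left out (exact permutation p = 0.0286, n = 3 and 4), again where 12.4% of all genes separated, and 1.13 percentage points when KO M2 replicate 1 was left out (exact permutation p = 0.829, n = 3 and 4). Among the 2829 genes with 50% or more of the body covered in both M0 libraries, 0.389%, or 11 genes, had 0% in all 8 stimulated libraries, and Socs1 was one of them together with Dusp2 and Hes6, named after their values were seen. These 11 genes were short, with a median length of 1.63 kb against 9.64 kb for the 2829. The pattern that defines them follows that of Socs1 and was not planned. The neighbouring gene Tnp2, a sperm chromatin gene 2.399 kb away on the upstream side, was covered at 100% in both KO M2 libraries, 0% and 100% in WT M2, 75.9% and 100% in KO M1, 85.2% and 49.1% in WT M1, and 100% in both M0 libraries.

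Socs2 (chromosome 10, 95383903 to 95417321), the inhibitor of growth hormone signalling, had the highest cover of the family in the stimulated libraries, with every M2 library below every M1 library. Its 43.4 kb window was under regions over 70.5% and 65.9% in KO M2, 60.8% and 71.7% in WT M2, 75.0% and 78.2% in KO M1, 80.8% and 80.1% in WT M1, 64.5% in KO M0 and 59.3% in WT M0. M2 and M1 did not overlap, with means of 67.2% ± 4.95 over the M2 libraries and 78.5% ± 2.60 over the M1 libraries (SD, n = 4), a difference of -11.3 percentage points (exact permutation p = 0.0286, adjusted p = 0.880). Every M2 library lay below every M1 library at 2.04% of genes. The difference was -2.32 percentage points (exact permutation p = 0.400, n = 4) with only regions of at least 16 tags per kb, and -6.47 (exact permutation p = 0.543, n = 4) with the upper 50% of each list by score.

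At Socs2 the main region was present in all stimulated libraries, and the positions of its ends overlapped between the states. That region began 8.99 to 9.94 kb inside the gene's lower-coordinate end in M2 and 7.96 to 9.42 kb in M1, and it reached 0.758 to 10.8 kb past the upper end in M2 and 6.09 to 8.56 kb in M1. A second, sparse region near the lower end was 3.48 to 5.12 kb long in M1 and was 1.28 to 1.71 kb long in the 3 M2 libraries that had one. The mark was denser in M0, where the densest region held 192 tags per kb in KO M0 and 119 in WT M0. It held 25.6 to 46.3 in M2 and 31.0 to 34.4 in M1. This region was 7.91 kb long in KO M0 and 16.9 kb in WT M0, but 24.66 kb or more in each stimulated library. All regions touching the window together held 76.0 tags per kb in KO M0 and 92.0 in WT M0. They held 25.6 to 41.9 in M2 and 27.8 to 32.5 in M1. By that measure KO M0 lay below WT M0. By cover alone M0 did not stand out at Socs2, whose M0 values overlapped those of M2.

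**Figure D3:**
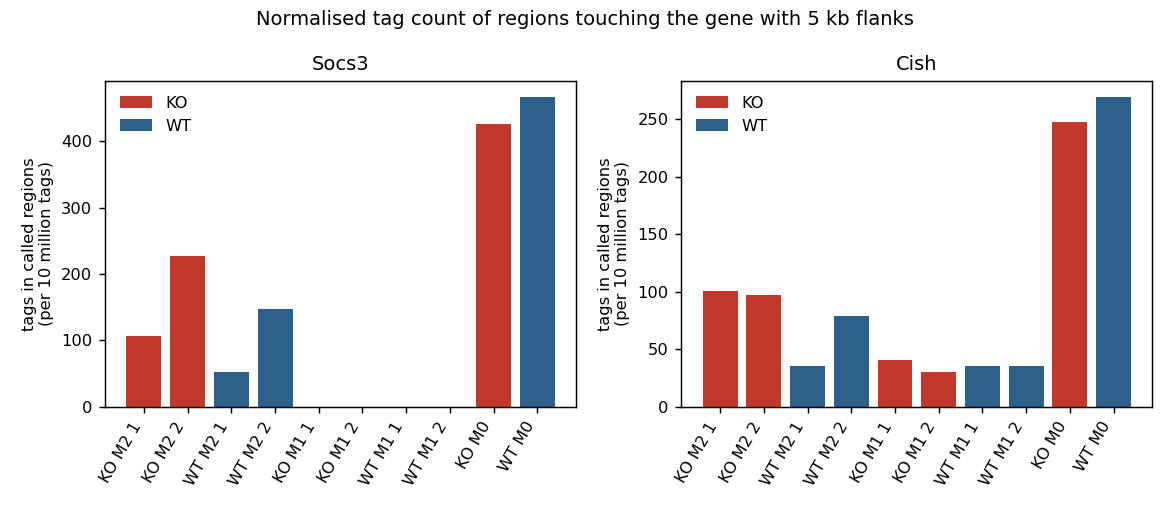
Summed Normalized Tag Count (tags per 10 megatags) of all regions that touch the windows of Socs3 and Cish, one bar per library (KO red, WT blue). Socs3 ranges over 52.6 to 227.1 tags in M2, has no called region to count in M1 and has 426.4 and 467.6 in M0. Cish is at 35.2 to 100.9 in M2, 29.8 to 40.3 in M1 and 247.7 and 269.8 in M0.

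Socs4 (chromosome 14, 47276920 to 47296102), Socs5 (chromosome 17, 87107278 to 87137647) and Socs6 (chromosome 18, 88865169 to 88894364) had no called region anywhere in their windows in any of the 10 libraries. The same held for 43.8% of all protein-coding genes. Around the Socs4 start site the uncalled stretch was 218 to 350 kb long in M2, 202 to 336 kb in M1 and 189 to 264 kb in M0. Its promoter has more CpG pairs than those of Socs3 and Socs1. Whether CpG pairs bear on cover was not tested. Socs7 (chromosome 11, 97362292 to 97398542) was uncalled over its whole body in every library. A region beyond its upper end, spanning the near end of the neighbouring gene Arhgap23, reached into the window over 0.683% of the window in KO M1 replicate 2 and 0.218% in KO M0. The adjacent gene on the other side, Gpr179, 9.94 kb away, was covered over 88.1% to 93.9% of its body in the 10 libraries. The nearest neighbours of Cish and Socs5 were nearly free of regions, with at most 1.98% of the body covered in any library.

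Over the family, 5 of 8 genes had some cover, 3 of them in M0 above all stimulated libraries (Socs3, Cish and Socs1, against 9.20% of all genes with cover). At Socs3 the order was M0, M2, M1 with no overlap. At Cish and Socs1 M0 was highest and M2 and M1 overlapped, and at Socs2 M1 was highest and M2 and M0 overlapped. In M2 against M1, 1 member of 5 was higher in every M2 library, as at 1.04% of all genes, and 1 was lower, as at 2.04%. Their differences ranged from -11.3 to 44.9 percentage points, and the median over all 11759 genes was 0.

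**Figure D4:**
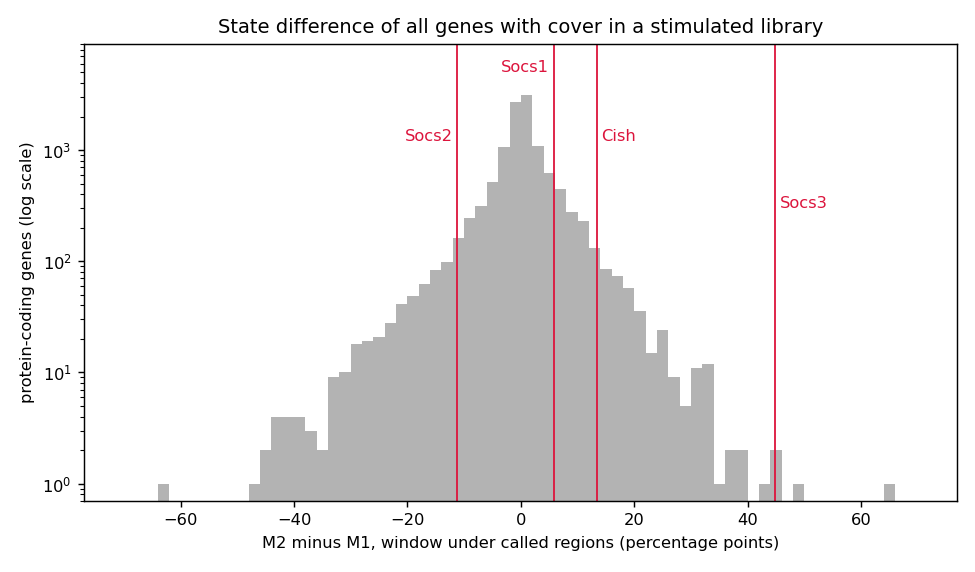
Histogram of M2 minus M1 window cover in percentage points for the 11759 protein-coding genes with cover in a stimulated library (count on a log scale), with the 4 SOCS genes over 1 percentage point from 0 marked by red lines. Socs3 lies at 44.9, with 2 genes above it, Cish at 13.3 has 384 genes above it, Socs2 at -11.3 has 514 below it, and Socs1 lies at 5.76.

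The comparison of PERK-deficient with control macrophages, the study's central one, gave no call at any SOCS gene. Permuting the labels within each state over all 10 libraries (72 arrangements, smallest p 0.0278), KO minus WT was 5.32 percentage points at Socs3 (exact permutation p = 0.667), 1.53 at Cish (p = 0.639), 4.32 at Socs1 (p = 0.556), 0.267 at Socs2 (p = 0.972) and 0.180 at Socs7 (p = 0.500). Without WT M2 replicate 1 the difference was 0.176 at Socs3 and 0.755 at Socs1. Over all genes with cover, 4.23% had p under 0.05 in that test and the smallest adjusted p was 0.657. A p above the threshold does not show that the genotypes were alike. Within M2, Cish averaged 34.1% ± 1.75 in KO and 23.1% ± 9.80 in WT (SD, n = 2 each), with both KO libraries above both WT libraries, as at 25.6% of all genes. With 2 libraries a side an exact permutation p cannot be under 0.333. Beside this stand the shares of tags in regions, 61.0% and 61.3% in KO M2 against 41.3% and 56.5% in WT M2, whose part in the difference was not tested. Without WT M2 replicate 1 the KO minus WT difference at Cish over all states was -1.83 percentage points. Within M1, Socs2 averaged 76.6% ± 2.26 in KO and 80.4% ± 0.493 in WT (SD, n = 2 each), with both KO libraries below both WT libraries, as at 7.67% of genes. With the upper 50% of regions by score, a cut that drops whole regions, KO minus WT at Socs2 was 36.8 percentage points (exact permutation p = 0.0278, n = 5 each, not adjusted). It was 0.267 with all regions and 1.72 with regions of at least 16 tags per kb (exact permutation p = 0.444). The share of all genes with p under 0.05 under the score cut was not counted.

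The genotype difference was not shown to depend on the state. KO minus WT in M2 less that in M1 was 8.72 percentage points at Socs3 (exact permutation p = 1), 10.6 at Cish (p = 0.278), 14.4 at Socs1 (p = 0.333) and 5.79 at Socs2 (p = 0.389), where the smallest p of this test is 0.0556. The authors' deposited tables of regions that differ between KO and WT list none within 5 kb of a SOCS gene in M2 or M1. They hold 1049 regions with more in KO and 185 with more in WT for M2, and 93 and 49 for M1. The share of all genes within 5 kb of such a region was not counted. The lack of one near this family is therefore not read as a result about it. The nearest listed region, 7.10 kb from Socs7 within Arhgap23, is given by the authors' deposited table for M2 with a log2 fold of 1.42 (more in KO), a p-value of 0.00254 and an FDR of 0.164.

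The other genes of the pathway were read from a list of 77, of which 37 had cover in a stimulated library and 34 had none in any library. Of all 21887 protein-coding genes, 11759 had cover in a stimulated library and 43.8% had none in any library. The counts of covered genes in the list and its groups stand beside these without a test and are not read as particular to the pathway. None of the 37 separated M2 from M1 in either direction, against 1.04% and 2.04% of all genes, and their median difference was -0.0774 percentage points. Of 40 receptor genes 24 had cover in a stimulated library and 14 had none in any library. The IL-9 receptor gene Il9r averaged 59.5% ± 16.4 in M2 and 29.5% ± 12.7 in M1 (SD, n = 4; exact permutation p = 0.0571). Il13ra1, Epor and Il22ra1 had M2 minus M1 differences of 11.5, 4.35 and 2.71 percentage points, and Il13ra1 is X-linked, with cover above 2.30% only in WT M2 replicate 1 (82.5%) and WT M1 replicate 1 (40.4%). Toward M1, the IL-2 receptor alpha chain Il2ra averaged 11.5% ± 9.10 in M2 and 24.9% ± 6.31 in M1 (SD, n = 4; exact permutation p = 0.0857), followed by Il23r, Il20ra, Ifnlr1 and Il5ra with differences of -6.56 to -3.13. Of the 4 JAK kinases 2 had cover and of the 7 STAT genes 4, at no more than 12.7% of the window for any STAT gene in any library. Jak3 was the 1 listed gene with KO above WT within both M2 and M1, at 15.2% and 14.6% in KO M2, 13.9% and 14.1% in WT M2, 14.5% in both KO M1 libraries, 14.0% and 12.4% in WT M1, 30.4% in KO M0 and 13.7% in WT M0, as at 5.16% of all genes. The SOCS box partners Elob, Eloc, Cul5 and Rnf7, which form the ubiquitin ligase, had no cover in any stimulated library.

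Genes whose cover followed a SOCS gene most closely over the 10 libraries, as Pearson's r of window cover with no test, were found for the 4 members that varied by 20 percentage points or more. Closest to Socs3 were Saa3 (r = 0.961), an acute phase protein gene, Cd40 (r = 0.957), the costimulatory receptor, and Map4k3 (r = 0.948), whose cover was at most 0.987%. Saa3 averaged 27.6% in M2, 9.79% in M1 and 31.5% in M0, and Cd40 35.5% in M2, 14.7% in M1 and 53.5% in M0. Closest to Cish were Ttc21a (r = 0.992), Faap20 (r = 0.974) and Ncaph2 (r = 0.966), to Socs1 Ptpn1 (r = 0.989), a phosphatase that also restrains JAK signalling but had at most 3.19% cover, Scfd2 (r = 0.985) and Zfp653 (r = 0.984), and to Socs2 Gm39469 (r = 0.963), Slc1a1 (r = 0.948) and Lrrc74a (r = 0.946). The points share library, depth and state, and several of these genes have cover far below that of the SOCS gene they follow.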

How the data were processed

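Chromatin was immunoprecipitated with an antibody to H3K27me3 and sequenced. HOMER 4.8, Bowtie2 2.4.2, DiffBind 2.0.2, deepTools 3.5.1 and SAMtools 1.10 are named in the submitters' processing notes, as is mm10. Per the file headers the authors called regions in each library separately with HOMER findPeaks, without an input control, with windows of 1000 bp, a minimum distance of 2500 bp and an FDR of 0.001. The signal column holds the authors' tag count of a region scaled to 10 megatags, per the file headers. The authors' score served to keep the upper 50% of regions as an alternative, and the clonal ratio (fold change), per the file headers, was not used. The deposited tables of differential regions give log2 concentrations and log2 folds, p-values and false discovery rates. No source used here names the libraries and model behind those tables.

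The percent of each gene's body with 5 kb flanks lying under called regions was computed per library for 21887 protein-coding genes of RefSeq's GRCm38.p6 table, the same build as mm10, with Python 3.11.15, numpy 2.4.6 and pandas 2.3.3. Start sites came from RefSeq's promoter table, which held 4 of the 8 members and 79.9% of genes. For M2 against M1 the labels of 8 libraries were permuted exactly, two-sided, and for KO against WT those of 10 libraries within states, with p-values adjusted over all genes with cover. The series' design text calls the 2 libraries of each stimulated group biological replicates and does not say whether they came from separate animals. Tested on simulated data, the computation gave the right cover in 300 of 300 cases and p under 0.05 for 200 of 200 planted M2 shifts. The planted shifts were far larger than the simulated spread, which lay below the M2 SD of Socs3, Cish, Socs1 and Socs2. The 200 of 200 is therefore no measure of power for these data. No pairing was assumed. Alternatives were gene bodies, 2 kb flanks, the 2 kb around start sites, the upper 50% of regions by score, regions overlapping by 500 bp, each library left out, and, chosen after seeing the data, both WT replicate 1 stimulated libraries left out and regions of at least 16 tags per kb. Named were all members, the nearest gene on each side of a member where its cover bore on a result, the 3 genes most like each variable member, and the pathway genes with the 5 largest differences in each direction or separated by genotype; any other gene is said to be chosen after its values were seen or is a marker. The members and lists were chosen with earlier results of these data known. Some genes that this rule names are not reported here.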

Additional observations from a re-analysis of the deposited data

Results flagged for a closer look

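Socs7 in KO M1 replicate 2 had 0.683% of its window under regions, against 0% in the other 3 M1 libraries. It is listed because its gap to the others is the whole range of the 4 values, which holds for any value above 0 when the other 3 are at 0. The region behind it covers 6.32% of the flank on the Arhgap23 side and holds 21.9 tags per kb.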

How the results depend on the processing

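Leaving out 1 library at a time, M2 minus M1 was 41.5 to 51.1 percentage points at Socs3, 11.1 to 17.5 at Cish, 1.13 to 10.5 at Socs1 and -12.8 to -9.12 at Socs2, and Cish and Socs1 passed the unadjusted exact permutation threshold only without WT M2 replicate 1. KO minus WT ran over 0.176 to 9.71 at Socs3, -1.83 to 5.65 at Cish, 0.755 to 6.03 at Socs1 and -1.73 to 1.90 at Socs2, and its excess in M2 over M1 over -5.58 to 23.0 at Socs3. Genes separated upward in M2 numbered 138 to 1448 (members 1 to 3, pathway genes 0 to 4), downward 292 to 686 (members 1 to 1, pathway genes 0 to 3), and genes with KO above or below WT within both states 627 to 1534 and 238 to 503.

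With regions of at least 16 tags per kb, M2 minus M1 was 24.9 at Socs3 and -2.32 at Socs2, 0 members separated in either direction, 112 genes were lower in M2 and 94 lower in KO. Without both WT replicate 1 stimulated libraries it was 51.1 at Socs3 and -8.36 at Socs2 (exact permutation p = 0.1, the smallest possible). KO minus WT was then -2.48 at Cish and -1.33 at Socs2, and its excess in M2 was -5.58 at Socs3. That setting separated 1849 genes upward in M2 (16.5%; 3 members, 4 pathway genes), 904 downward (3 pathway genes), 1068 with KO above and 1191 with KO below. With the upper 50% of regions by score, M2 minus M1 at Socs2 was -6.47 with 0 members lower, KO minus WT was -1.89 at Socs3 and 36.8 at Socs2, its excess in M2 was -3.42 at Socs1 and -3.78 at Socs2, and 286 genes had KO above. Gene bodies alone gave 76 genes higher and 139 lower in M2 and 374 with KO above. Within 10 and within 25 kb the authors' tables list 1 region near a member. The cause was not tested for any of these.

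With same-numbered libraries paired as a replicate block, M2 minus M1 stayed at 44.9 at Socs3 and -11.3 at Socs2 with an exact permutation p of 0.125, the smallest that 4 pairs give, and KO minus WT at Socs2, without M0, was -0.973. No other call changed. Deviations of same-numbered libraries from their group means correlated by -0.105 to 0.161 over autosomal genes and by 0.652 for WT M2 with WT M1 over all genes, X-linked ones included, where both replicate 1 libraries stand apart. Not every pair passed 0.1, so the numbers were not taken to pair the libraries.

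The start site alternative covers 4 members. Depth and the 12.9 to 15.9 tags per kb needed for a call limit what is seen at weak regions such as those of Cish, and M0 has 1 library per genotype.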
